A study of Mus musculus with 6 samples.

Results

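The carboxylesterases examined here are 10 genes of mouse liver, Ces1b, Ces1c, Ces1d, Ces1e, Ces1f, Ces1g, Ces2a, Ces2e, Ces3a and Ces3b, taken from a deposited table of 55401 genes by matching its Ensembl identifiers to these symbols. The table holds 20 genes with a carboxylesterase symbol, and the other 10 are described as a group near the end. The measurements are poly(A) RNA sequencing counts from fresh liver of C57BL/6 mice, 3 libraries in each of 2 groups. HFCF stands for a high fat/cholesterol/fructose diet, which that group received, and OP for okra polysaccharide, carbohydrate prepared from okra, with which the other group was treated. For OP the labels name no diet, dose or duration, for neither group an age, and no mice on a standard diet were part of the comparison, which asked how livers of treated mice differed from HFCF livers. Nothing in the labels tells whether replicates are separate animals. The p-values therefore cover the spread among the samples at hand, which may be technical.

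Carboxylesterases are serine hydrolases that split ester, thioester and amide bonds, and most of them reside in the lumen of the endoplasmic reticulum, held there by a retention signal at the end of the protein. In liver they hydrolyse ester drugs and other foreign compounds, and several also act on the body's own lipids, among them stored triacylglycerol whose acyl chains are reused for very low density lipoprotein (VLDL). Rodent genomes carry more carboxylesterase genes than the human genome, as tandem copies grouped in the subfamilies Ces1, Ces2 and Ces3 among others.

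All 20 genes lie on chromosome 8 in the GENCODE annotation, with Ces1a to Ces1h in 1 run on the minus strand and the Ces2, Ces3 and Ces4a genes in another run on the plus strand. The longest open reading frames of Ces3a and Ces3b were 95.3% identical, those of Ces1b and Ces1c 90.9%, those of Ces2a and Ces2e 83.3% and those of Ces1d and Ces1g 81.6%. The 15 pairs within Ces1 ranged from 72.1% to 90.9%, and the 28 pairs between subfamilies from 58.8% to 62.6%. Promoters of 7 of the 10 members were found in the RefSeq table at hand (assembly GRCm38.p6, another build than the GRCm39 of the counts). The 250 bases before the annotated start are printed, 5′ to 3′ on the gene's strand, for the closest pair within Ces1 and for the Ces2 pair, because the first pair had like fold changes and the second had fold changes of opposite sign. Capitals mark matches on either strand to 4 short motifs. These are the nuclear receptor half-site AGGTCA, the core promoter element known as the TATA box and searched as TATAAA, the upstream element bound by the factor NF-Y and searched as CCAAT, and the half-site of the hepatocyte factor HNF1 searched as GTTAAT. The Ces1b promoter, chr8:93079941-93080190 on the minus strand, is the first of 2 listed for that gene. Ces1c is at chr8:93131284-93131533 on the minus strand, Ces2a at chr8:104733753-104734002 and Ces2e at chr8:104926010-104926259, both on the plus strand.
Ces1b: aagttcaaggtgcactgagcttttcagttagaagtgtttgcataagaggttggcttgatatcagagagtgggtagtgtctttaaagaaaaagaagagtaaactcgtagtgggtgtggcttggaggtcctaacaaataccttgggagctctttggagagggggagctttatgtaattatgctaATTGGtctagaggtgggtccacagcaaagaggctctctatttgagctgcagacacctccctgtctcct
Ces1c: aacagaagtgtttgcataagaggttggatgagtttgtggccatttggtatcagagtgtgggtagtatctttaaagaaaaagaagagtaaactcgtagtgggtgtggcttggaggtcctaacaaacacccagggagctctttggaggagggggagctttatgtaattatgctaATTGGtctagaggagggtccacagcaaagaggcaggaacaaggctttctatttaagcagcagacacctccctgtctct
Ces2a: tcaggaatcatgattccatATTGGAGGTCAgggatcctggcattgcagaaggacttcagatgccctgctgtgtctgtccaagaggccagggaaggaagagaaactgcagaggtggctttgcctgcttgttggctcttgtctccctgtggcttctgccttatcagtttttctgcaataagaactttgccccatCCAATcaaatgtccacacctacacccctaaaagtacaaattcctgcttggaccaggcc
Ces2e: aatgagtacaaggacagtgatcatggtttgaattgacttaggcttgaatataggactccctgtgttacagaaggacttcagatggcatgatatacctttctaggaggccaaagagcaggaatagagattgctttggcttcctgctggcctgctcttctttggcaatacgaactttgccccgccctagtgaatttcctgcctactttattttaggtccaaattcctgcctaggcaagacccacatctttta
The Ces1b and Ces1c stretches were 94.6% identical over 223 aligned bases, and each held a CCAAT match on the reverse strand, at -68 and -78 from the start. The Ces2a and Ces2e stretches were 67.7% identical over 217 aligned bases. The 24 pairs outside these closest ones ranged from 45.9% to 60.9%. Ces2a held AGGTCA at -226, directly after a reverse CCAAT match, and a second CCAAT at -58, and Ces2e held no match to the 4 motifs. Of the 7 members with a promoter, 5 held CCAAT, 2 TATAAA, 1 AGGTCA and 1 GTTAAT, against 33.8%, 12.4%, 14.0% and 6.43% of 32851 RefSeq promoters cut to the same length. These matches describe the letters in the window and nothing else.

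Total counts were 46459980 to 58822973 in the HFCF libraries and 50635853 to 61918541 in the OP libraries. With counting error only, 0 counts in a library allow a level of up to 0.0472 to 0.0625 CPM. That bound treats counts as independent, and it is too low if a read pair weighs several counts. CPM is the count scaled to the TMM-adjusted library size. HFCF replicate 3 and OP replicate 3 each stood apart from the other 2 libraries of their group, with a chi-square per degree of freedom of 167 to 269 and 337 to 350, against 46.2 between HFCF replicates 1 and 2 and 148 between OP replicates 1 and 2. The share of counts in mitochondrially encoded mRNAs was 18.3 ± 4.01% (SD, n = 3) in HFCF and 9.31 ± 4.44% in OP, lowest within HFCF in replicate 3 (14.1%) and highest within OP in replicate 3 (14.4%). Hepatocyte markers were abundant in every library, with 9 of 10 listed genes found. They summed to 39052 to 62102 CPM in HFCF and 58427 to 85947 CPM in OP. The sum was highest within HFCF and lowest within OP in the replicates numbered 3. Of the 9 genes, 8 had log2 fold changes above 0, with a median of 0.31 against 0.019 over all tested genes. By edgeR 1 was called higher (Ttr) and 1 lower (Cps1), and 4 were higher and 1 lower at an unadjusted p under 0.05. DESeq2 called 3 higher (Alb, Serpina1c and Ttr) and 1 lower, and limma-voom 1 in each direction. Fewer cells of a type and less RNA per cell cannot be told apart in these bulk samples.

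The mRNA of 5 of the 6 Ces1 members was higher in OP livers. Ces1c, Ces1d, Ces1e, Ces1f and Ces1g rose by 1.65- to 3.25-fold, while Ces1b, Ces2a, Ces2e, Ces3a and Ces3b did not reach the threshold of 0.05. A gene was called where its adjusted p (edgeR, quasi-likelihood, Benjamini-Hochberg over the 17394 genes that passed the low-count filter) was under 0.05, and all 10 members passed that filter. So 5 of 10 members were called higher and 0 lower, where 3.26% of all tested genes were called higher and 3.47% lower. The count of 0 lower became 1, Ces2a, with DESeq2, stayed 0 with limma-voom, and was 1, again Ces2a, at an unadjusted p under 0.05 in edgeR. In 8 members every OP library lay above every HFCF library, as for 15.8% of tested genes. In 1 member, Ces2a, every OP library lay below, as for 15.4% of tested genes. The median log2 fold change over the members was 0.89, against 0.019 over all tested genes.

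**Figure D1:**
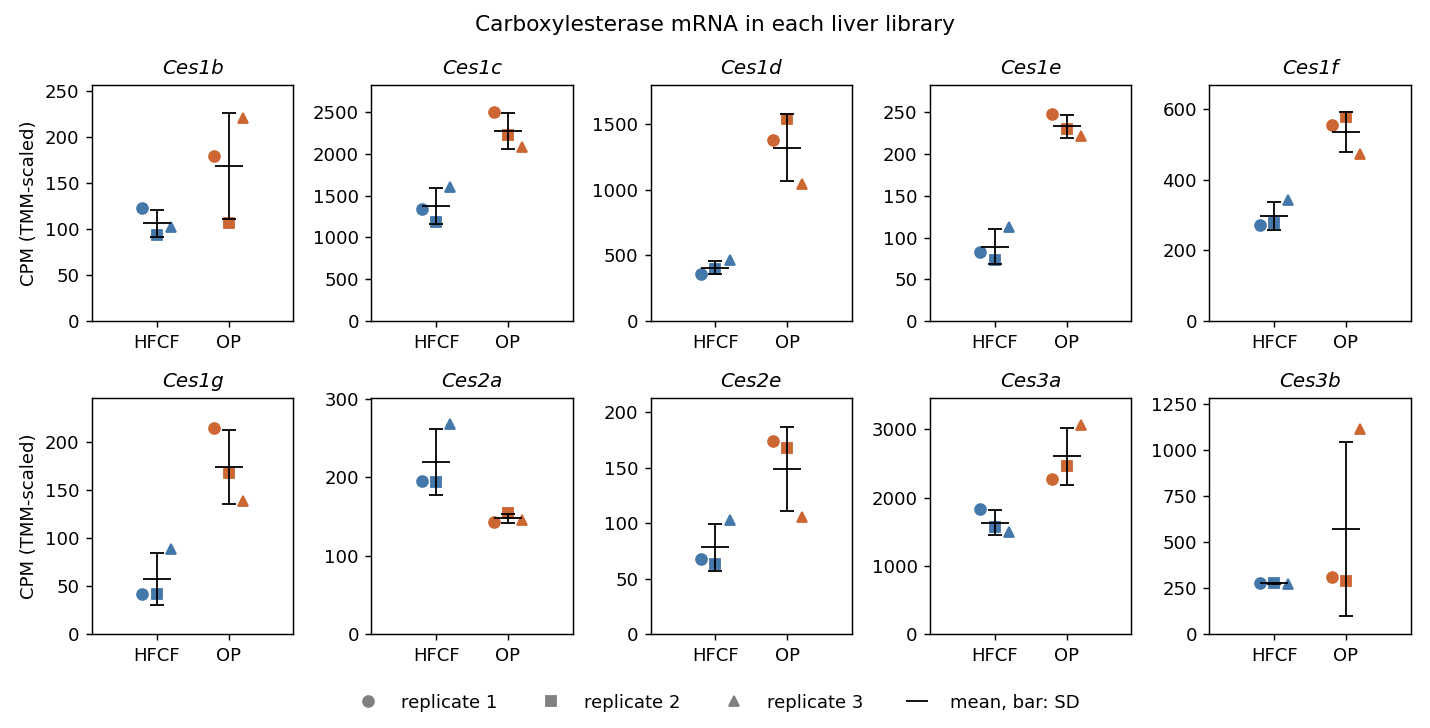
CPM of each member in the 3 HFCF and 3 OP libraries (points, with the shape giving the replicate), with the group mean and SD as lines. Each panel has its own linear axis from 0. OP points lie above HFCF points in 8 panels, below them in the Ces2a panel, and overlap them in the Ces1b panel.

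Ces1d encodes the hepatic triacylglycerol hydrolase, which releases fatty acids from stored fat for VLDL assembly. Its level was 362, 393 and 462 CPM in HFCF replicates 1, 2 and 3 and 1376, 1541 and 1043 CPM in OP replicates 1, 2 and 3. The lowest OP library thus stood above the highest HFCF library. Ces1d rose by 1.70 ± 0.194 on the log2 scale (SE, 95% interval 1.26 to 2.15, adjusted p = 0.0046). The call was lost without HFCF replicate 2 (adjusted p = 0.0554, log2 fold change 1.64) and held in the other 16 of 17 alternatives.

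Ces1g, also called esterase-x, was at 42.1, 42.1 and 88.4 CPM in HFCF and 215, 168 and 138 CPM in OP. HFCF replicate 3 was the highest HFCF library and OP replicate 3 the lowest OP library, and the groups did not overlap. The gene rose by 1.60 ± 0.315 on the log2 scale (95% interval 0.88 to 2.32, adjusted p = 0.0255). Ces1e encodes egasyn, which holds β-glucuronidase in the endoplasmic reticulum. Its CPM was 82.6, 72.8 and 112 in HFCF and 248, 229.8 and 221 in OP, a narrow band in the treated group and a clear gap between groups. Ces1e rose by 1.39 ± 0.182 on the log2 scale (95% interval 0.97 to 1.80, adjusted p = 0.00708). Gusb, the gene of β-glucuronidase, was at 15.7, 15.4 and 15.9 CPM in HFCF and 12.9, 13.2 and 11.2 CPM in OP and was not called (log2 fold change -0.34, adjusted p = 0.178). It was chosen after its values were seen.

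Ces1f, a second triacylglycerol hydrolase of liver, was at 271, 278 and 342 CPM in HFCF and 554, 578 and 472 CPM in OP, with no overlap. It rose by 0.85 ± 0.158 on the log2 scale (95% interval 0.48 to 1.21, adjusted p = 0.0213). Ces1c encodes the esterase that mouse liver secretes into plasma, where it hydrolyses ester drugs. Its CPM was 1336, 1190.05 and 1606 in HFCF and 2500, 2231 and 2076 in OP, so that HFCF replicate 3 and OP replicate 3 came closest without overlapping. Ces1c rose by 0.72 ± 0.178 on the log2 scale (95% interval 0.31 to 1.13, adjusted p = 0.0492), at the edge of the threshold. Leaving out replicate 1 or 2 of either group ended the calls of Ces1c, Ces1f and Ces1g (adjusted p of 0.0532 to 0.251), and leaving out replicate 1 or 2 of HFCF ended that of Ces1e (0.0679 and 0.0674). With 1 library left out at a time the log2 fold changes still ran from 0.59 to 0.85 for Ces1c, 0.76 to 0.96 for Ces1f, 1.37 to 2.05 for Ces1g and 1.22 to 1.58 for Ces1e. Ces1c also missed the threshold under RLE scaling (0.0558), upper quartile scaling (0.0516), total counts (0.0782) and no low-count filter (0.101).

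Ces1b, the nearest copy of Ces1c, was at 122, 93.3 and 102 CPM in HFCF and 179, 107 and 220 CPM in OP. OP replicate 2 lay among the HFCF libraries, and this was the 1 member whose groups overlapped. Its log2 fold change was 0.67 ± 0.254 (95% interval 0.09 to 1.25, adjusted p = 0.145), and it was called higher without OP replicate 2 (0.91, adjusted p = 0.0413). No stretch of 150 bases was shared between the transcripts of Ces1b and Ces1c, and 24 windows of 100 bases were. Their counts summed gave 1458, 1283 and 1708 CPM in HFCF and 2679, 2338 and 2296 CPM in OP, a log2 ratio of 0.72.

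Over the 6 Ces1 members together the summed level was 2333 ± 337 CPM in HFCF and 4699 ± 471 CPM in OP (SD, n = 3), or 2.01-fold. In a fit that adds the mitochondrial mRNA share as covariate, the log2 fold changes were 1.19 for Ces1d, 1.09 for Ces1e, 0.81 for Ces1g, 0.50 for Ces1f and 0.47 for Ces1c. Of these, Ces1d kept its call (adjusted p = 0.0323). Ces1b moved the other way, to 1.21 (adjusted p = 0.114). The part of the mitochondrial share in these results was otherwise not tested.

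**Figure D2:**
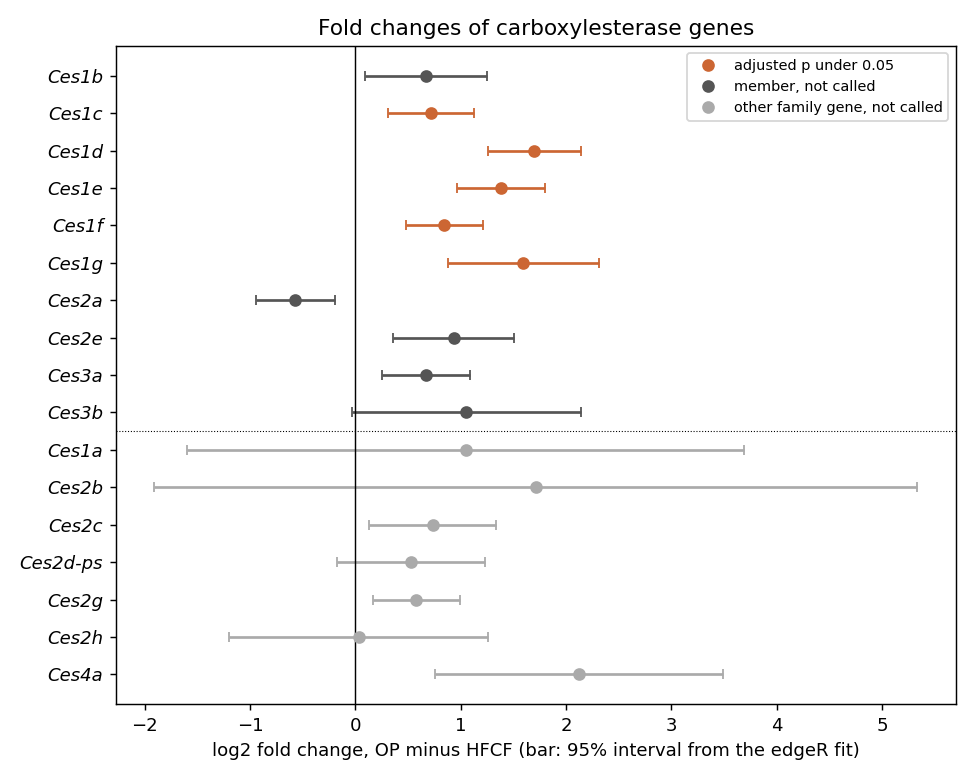
Log2 fold change, OP minus HFCF, of the 10 members (top) and of the 7 other carboxylesterase genes that passed the low-count filter (bottom), with 95% intervals from the edgeR fit. Coloured points passed the adjusted threshold of 0.05, and Ces2a is the single point to the left of 0.

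The Ces2 enzymes act on esters with a bulky alcohol part, and some of them also hydrolyse acylglycerols. Both Ces2 members lay near the threshold, on opposite sides of 0. Ces2a was at 195, 194 and 267 CPM in HFCF and 143, 154 and 146 CPM in OP, with every OP library below every HFCF library. Its log2 fold change was -0.57 ± 0.163 (95% interval -0.94 to -0.20, adjusted p = 0.0723). Ces2e was at 68.0, 63.5 and 103 CPM in HFCF and 174, 168 and 105 CPM in OP, where OP replicate 3 lay just above HFCF replicate 3. Its log2 fold change was 0.93 ± 0.251 (95% interval 0.36 to 1.51, adjusted p = 0.0623).

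Small changes of procedure moved both Ces2 genes across the threshold. With DESeq2, a filter of 1 CPM in 3 libraries or counts divided by 4, Ces2a was called lower (adjusted p = 0.0124, 0.0482 and 0.0494) and Ces2e higher (0.00336, 0.0478 and 0.0440). Ces2e was also called higher without HFCF replicate 3 (0.0396) or without OP replicate 3 (0.0325), and in the fit with the mitochondrial covariate its log2 fold change was 0.16 and that of Ces2a -0.83. Their summed level was 297 ± 63.4 CPM in HFCF and 297 ± 39.6 CPM in OP (SD, n = 3). The ratio of Ces2e to Ces2a within a library, in CPM per kilobase of the longest transcript, was 0.253, 0.238 and 0.279 in HFCF and 0.887, 0.791 and 0.524 in OP. These ratios were chosen after the values were seen and are a description. Ces2a shared 73 windows of 150 bases (2.97%) and 200 windows of 100 bases (8.13%) with the predicted gene Gm7208. The counts of Gm7208 were 33, 24, 91 in HFCF and 8, 34, 0 in OP, against 9419, 9323, 16198 and 8561, 9802, 6999 for Ces2a.

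Ces3a and Ces3b are the near-identical liver genes of the third subfamily. Ces3a was at 1837, 1564 and 1498 CPM in HFCF and 2276, 2470.5 and 3068 CPM in OP, without overlap. Its log2 fold change was 0.67 ± 0.183 (95% interval 0.25 to 1.09, adjusted p = 0.0644), called higher by DESeq2 (0.00276) and by limma-voom (0.0464). Ces3b was level across 5 libraries and high in 1, at 278, 276 and 271 CPM in HFCF, 309 and 289 CPM in OP replicates 1 and 2, and 1115 CPM in OP replicate 3. Its log2 fold change of 1.05 ± 0.476 (95% interval -0.03 to 2.14, adjusted p = 0.210) was 0.12 without OP replicate 3 and 2.01 in the fit with the mitochondrial covariate. It was called in 0 of 17 alternatives. So although all 3 OP libraries exceeded the HFCF libraries for Ces3b, the size of the difference rested on OP replicate 3.

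Ces3a and Ces3b shared 45 windows of 150 bases, 1.56% and 1.58% of their windows. At 100 bases they shared 194 windows, or 6.88% and 7.04%. No source at hand says how the counting placed reads from such stretches. Within a library the ratio of Ces3b to Ces3a per kilobase was 0.129, 0.150 and 0.154 in HFCF, 0.116 and 0.0997 in OP replicates 1 and 2, and 0.309 in OP replicate 3. Their summed level was 1908 ± 183 CPM in HFCF and 3176 ± 877 CPM in OP, a log2 ratio of 0.74, or 0.49 without OP replicate 3. Gm45724, on the strand opposite to Ces3a with 1 shared exon base, had 223, 228 and 359 counts in HFCF and 243, 354 and 530 in OP. Gm45909, inside Ces1d with 0 shared exon bases, had 84, 142, 231 and 383, 232, 157 counts, far below Ces1d in each library.

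The order of the libraries within a group differed between members. In 7 members HFCF replicate 3 was the highest HFCF library, and in 6 of these (Ces1c, Ces1d, Ces1e, Ces1f, Ces1g and Ces2e) OP replicate 3 was the lowest OP library. Albumin mRNA (Alb), the main secreted product of hepatocytes, had this order too, at 15870, 16246 and 32978 CPM in HFCF and 50265, 44088 and 28908 CPM in OP (log2 fold change 0.92, adjusted p = 0.158). In 3 members, Ces1b, Ces3a and Ces3b, OP replicate 3 was instead the highest of all libraries. The 5 members called higher all belong to the first set, and without OP replicate 3 their log2 fold changes were 0.78 (Ces1c), 1.85 (Ces1d), 1.42 (Ces1e), 0.93 (Ces1f) and 1.74 (Ces1g). Without HFCF replicate 3 they were 0.85, 1.81, 1.58, 0.96 and 2.05 in the same order, and all 5 kept their calls in both fits.

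**Figure D3:**
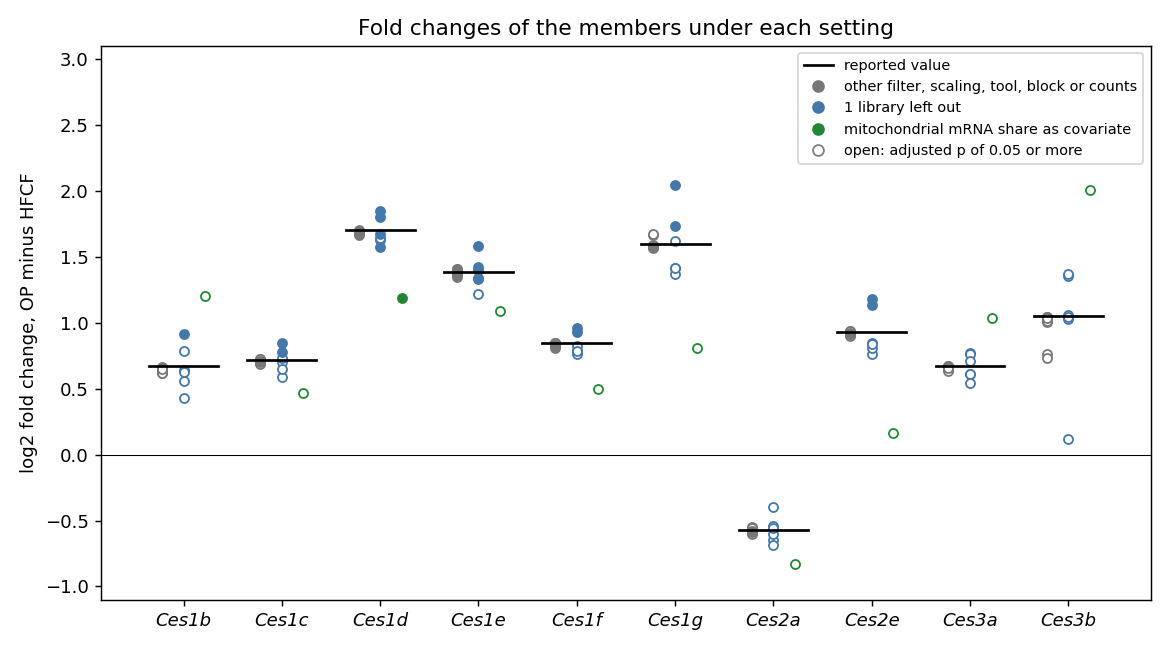
Log2 fold change of each member, OP minus HFCF, as reported (black line) and under 17 alternatives (points), with open points at an adjusted p of 0.05 or more. Every point of a member lies on the same side of 0, and the covariate fit (green) lies closer to 0 for Ces1c to Ces1g and Ces2e and farther from 0 for Ces1b, Ces2a, Ces3a and Ces3b.

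Levels can be set beside each other between members only per length, here CPM per kilobase of the longest GENCODE transcript. Ces3a and Ces1c were the most abundant members, with means of 798 ± 87.9 and 753 ± 115 CPM per kilobase in HFCF and 1273 ± 202 and 1241 ± 117 in OP (SD, n = 3), and their ranges overlapped in both groups. Ces1d followed with 202 ± 25.5 in HFCF and 659 ± 127 in OP, below Ces1c in every library. In HFCF the order went on with Ces1f (154), Ces3b (115), Ces2a (112), Ces1b (54.0), Ces1e (43.0), Ces2e (28.9) and Ces1g (24.1). Ces3b and Ces2a overlapped in their ranges, as did each neighbouring pair from Ces1b down to Ces1g. In OP it went on with Ces1f (277), Ces3b (238), Ces1e (112), Ces1b (85.8), Ces2a (75.3), Ces1g (72.8) and Ces2e (55.2). From Ces1f down, each neighbouring pair overlapped there except Ces3b and Ces1e. Per kilobase of the union of exons Ces1f came after Ces3b in both groups and, in HFCF, also after Ces2a, and in OP Ces1g came before Ces2a.

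All 10 members summed to 4538 ± 346 CPM in HFCF and 8171 ± 375 CPM in OP, 1.80-fold. They took 0.430, 0.431 and 0.500% of all counts in HFCF and 0.815, 0.815 and 0.816% in OP. Outside the mitochondrially encoded genes these shares were 0.554, 0.533 and 0.583% against 0.884, 0.871 and 0.961%. Of the summed level per kilobase, Ces2 members made up 5.40, 5.85 and 7.12% in HFCF and 3.42, 3.53 and 2.66% in OP, without overlap. Ces1 members made up 53.8 ± 4.07% in HFCF and 60.0 ± 7.78% in OP, and Ces3 members 40.1 ± 4.96% and 36.8 ± 8.23%, with overlapping ranges for both. Within Ces1, Ces1d took 8.87 ± 0.909% of the family's level in HFCF and 16.2 ± 3.60% in OP. Its ratio to Ces1c, chosen after the values were seen, was 0.247, 0.301 and 0.262 in HFCF and 0.502, 0.630 and 0.458 in OP.

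**Figure D4:**
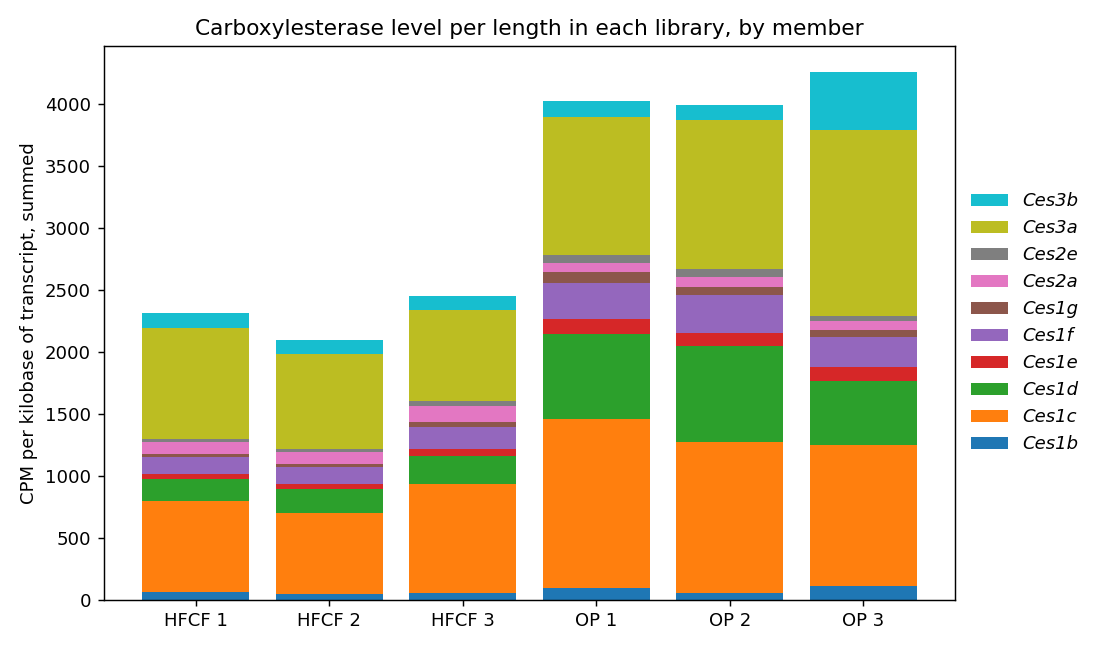
Summed level of the 10 members in each library, in CPM per kilobase of the longest transcript, split by member. The 3 OP bars are taller than the 3 HFCF bars, the Ces1d segment is taller in each OP library, and the Ces3b segment is tall in OP replicate 3.

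Of the 10 other carboxylesterase genes, 7 passed the low-count filter and 0 were called by edgeR or limma-voom in either direction. Ces2c, Ces2g and Ces4a were under 0.05 by the unadjusted edgeR p, above 0 in each case, and these 3 were called higher by DESeq2. All 7 had log2 fold changes above 0, with a median of 0.73, where 8939 of all 17394 tested genes lay above 0, with a median of 0.019. In 3 of the 7 every OP library lay above every HFCF library, as for 15.8% of tested genes. Ces2c, an intestinal and hepatic Ces2 enzyme, was at 22.8, 24.5 and 32.1 CPM in HFCF and 34.3, 34.1 and 63.7 CPM in OP (log2 fold change 0.73 ± 0.265, adjusted p = 0.130). Its value is uncertain, since 2.84% of its 150-base windows were shared with the pseudogene Ces2d-ps or the predicted gene Gm8798, as were 46.7% of those of Ces2d-ps with Ces2c or Gm8798. Of the 100-base windows, 13.6% of those of Ces2c and 57.0% of those of Ces2d-ps were shared with another gene. Ces2d-ps was at 13.0, 12.6 and 15.0 CPM in HFCF and 16.3, 11.998 and 30.4 CPM in OP (0.53 ± 0.309, adjusted p = 0.329), highest in OP replicate 3 as Ces2c was. Ces2g was at 13.1, 13.6 and 17.0 CPM in HFCF and 26.2, 20.5 and 18.7 CPM in OP (0.58 ± 0.181, adjusted p = 0.0894). Ces4a, chosen after its values were seen, was scarce at 0.290, 0.561 and 0.462 CPM in HFCF and 0.700, 1.73 and 3.33 CPM in OP (2.12 ± 0.599, adjusted p = 0.0701). Ces1a, Ces2b and Ces2h were scarce, the highest value among them being 1.14 CPM for Ces2b in OP replicate 3, and Ces1h, Ces2f and Ces5a had at most 1 count.

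Some other hydrolases of neutral lipids were higher in OP livers too. Of 15 tested genes, 4 were called higher, against 3.26% of all tested genes, and 0 lower, against 3.47%. Their median log2 fold change was 0.38. The lower count was 1, Pnpla2, with DESeq2 and at an unadjusted p under 0.05, and 0 with limma-voom. Abhd6, a monoacylglycerol and lysophospholipid hydrolase, was at 24.6, 29.8 and 30.3 CPM in HFCF and 72.6, 68.6 and 64.8 CPM in OP and rose by 1.28 ± 0.142 on the log2 scale (adjusted p = 0.00404). Monoglyceride lipase (Mgll) rose by 1.06 (adjusted p = 0.0219), hepatic lipase (Lipc) by 0.71 (0.0176) and endothelial lipase (Lipg) by 1.57 (0.0285). The main lipase of lipid droplets, Pnpla2, was at 119, 110.4 and 116 CPM in HFCF and 81.4, 96.4 and 54.1 CPM in OP and was not called (-0.57, adjusted p = 0.128). The retinyl and neutral ester hydrolase Aadac was not called either (0.30, adjusted p = 0.261). Both were chosen after their values were seen. The Abhd6 call was lost without HFCF replicate 2. The other 3 calls ended on leaving out replicate 1 or 2 of HFCF or replicate 1 of OP. Those of Mgll and Lipg also ended without OP replicate 2 (adjusted p = 0.0577 and 0.0668), and that of Lipg without HFCF replicate 3 (0.0650). Over the 6 fits that left out 1 library, log2 fold changes were at least 0.94 (Mgll), 0.63 (Lipc) and 1.22 (Lipg). With the covariate these 3 were not called, at log2 fold changes of 0.71 for Lipc, 0.49 for Mgll and 0.69 for Lipg (adjusted p = 0.0999, 0.183 and 0.495).

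Of 9 genes of VLDL assembly, 3 were called higher, against 3.26% of all tested genes, and 0 lower, against 3.47%. Their median log2 fold change was 0.58, and the lower count was also 0 with DESeq2, with limma-voom and at an unadjusted p under 0.05. Sar1b, a GTPase of the coat that carries lipoproteins out of the endoplasmic reticulum, was at 71.1, 80.0 and 95.5 CPM in HFCF and 172, 169 and 145 CPM in OP and rose by 0.98 ± 0.158 on the log2 scale (adjusted p = 0.0135). The apolipoprotein genes Apoc3 and Apoe rose by 0.71 (adjusted p = 0.0390) and 0.89 (0.0447). Among 11 other hydrolases of foreign compounds 2 were called higher and 0 lower (median 0.33), the paraoxonase gene Pon1 (0.89, adjusted p = 0.0242) and the valacyclovir hydrolase gene Bphl (0.81, 0.0418). Each of these 5 calls ended on leaving out replicate 1 or 2 of HFCF or replicate 1 of OP. Those of Apoc3, Apoe, Pon1 and Bphl also ended without OP replicate 2. Apoc3, Apoe and Bphl missed the threshold under total counts and with no low-count filter too, and Apoe under RLE scaling. With the covariate none of the 5 was called, at log2 fold changes of 0.83 for Apoc3, 0.80 for Apoe, 0.62 for Sar1b, 0.62 for Pon1 and 0.29 for Bphl (adjusted p = 0.0936, 0.135, 0.120, 0.198 and 0.477).

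Kdelr1 and Kdelr2, receptors that return proteins with retention signals to the endoplasmic reticulum, had log2 fold changes of 0.58 and 0.56 with non-overlapping groups and were not called by edgeR (adjusted p = 0.0792 and 0.0512). Both were called higher by DESeq2, Kdelr2 by limma-voom, and both had an unadjusted edgeR p under 0.05. Of 12 transcription factors that are known to act on carboxylesterase genes, 2 were called higher, against 3.26% of all tested genes, and 0 lower, against 3.47%. The median log2 fold change of the 12 was 0.36. In this list and among the hydrolases of foreign compounds, 1 gene each was lower at an unadjusted p under 0.05 and 0 by DESeq2 or limma-voom. These were Ppara and Gusb. The receptor gene Ppara was at 38.0, 35.8 and 45.4 CPM in HFCF and 33.1, 29.8 and 31.4 CPM in OP, without overlap. It was not called by edgeR (log2 fold change -0.34, adjusted p = 0.179), and the other 11 factors had log2 fold changes above 0. Ppara was chosen after its values were seen. The fat-regulating receptor Pparg was at 5.12, 2.91 and 6.72 CPM in HFCF and 11.2, 9.92 and 18.2 CPM in OP and rose by 1.41 ± 0.341 on the log2 scale (adjusted p = 0.0467). Nfe2l2, the antioxidant response factor, was at 59.6, 64.7 and 56.9 CPM in HFCF and 103, 88.2 and 133 CPM in OP and rose by 0.84 ± 0.174 (adjusted p = 0.0298). The Pparg call was lost in 5 of 6 fits that left out 1 library, all but that without HFCF replicate 3. It was also lost with no low-count filter, under RLE scaling and with the mitochondrial covariate. The Nfe2l2 call was lost without each HFCF library in turn, without OP replicate 1 and with the replicate number as a block. It held with the mitochondrial covariate. The drug-sensing receptors Nr1i2 and Nr1i3 overlapped between groups (0.32 and 0.27, adjusted p = 0.376 and 0.378), as did Hnf4a (0.35, adjusted p = 0.337), and these 3 were chosen after their values were seen.

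Several carboxylesterases are also made outside hepatocytes, Ces1d in adipocytes, Ces2 genes in the intestine and some members in kidney. Of 7 adipocyte markers, 5 passed the low-count filter, and 0 of these were called by edgeR or limma-voom. DESeq2 called 1 lower (Pck1), and 1 in each direction had an unadjusted edgeR p under 0.05. The 5 listed besides Pck1 and Adrb3 summed to 0, 0.104 and 4.66 CPM in HFCF and 12.4, 31.8 and 65.0 CPM in OP. Most of this was Cfd, at 0, 0.104 and 3.32 CPM in HFCF and 12.2, 26.5 and 63.0 CPM in OP. Cfd had a log2 fold change of 4.84 (edgeR adjusted p = 0.0626). Both genes set apart had log2 fold changes below 0, -1.53 for Pck1 and -0.22 for Adrb3. Adrb3 was at 46.2, 46.6 and 22.8 CPM in HFCF and 27.1, 22.9 and 49.4 CPM in OP, with overlapping groups. Pck1, which hepatocytes make as well, held most of the whole list's sum of 3726 to 4496 CPM in HFCF and 617 to 2313 CPM in OP. The enterocyte genes Sis, Lct, Cdx2 and Alpi, the kidney genes Slc34a1 and Slc12a1 and the pancreatic genes Cpa1, Prss1, Amy2a5 and Pnlip had 0 counts in every library. Of the remaining genes of these lists, Fabp2 (enterocyte) and Cela1 (pancreas) were called higher, so that the enterocyte list summed to 98.2 to 109 CPM in HFCF and 157 to 184 CPM in OP and the pancreas list to 7.71 to 11.6 and 20.2 to 25.1 CPM. The kidney list summed to less than 1 CPM in every library. Of 5 red cell markers 4 were called lower, and the list summed to 941 to 1767 CPM in HFCF and 192 to 414 CPM in OP. The remaining one, Alas2, went the other way, at 49.4, 47.9 and 53.8 CPM in HFCF and 59.5, 70.1 and 59.7 CPM in OP. It was not called by edgeR (log2 fold change 0.33, unadjusted p = 0.0411, adjusted p = 0.178). The part of these markers, those of adipocytes included, in the carboxylesterase results was not tested. Markers of Kupffer cells, sinusoidal endothelium, stellate cells, cholangiocytes and lymphocytes, 26 genes, gave 0 calls in edgeR and limma-voom, while Cd5l, Clec4f and Krt7 were lower by DESeq2 and at an unadjusted p under 0.05.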

How the data were processed

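Polyadenylated RNA of 6 liver samples, 3 HFCF and 3 OP by their titles, was made into dUTP-marked libraries and sequenced paired-end, per the labels' protocols. Cutadapt 1.9, FastQC and the build GRCm39 are named in the submitters' processing notes. Not given in the sources used here were the aligner, the counter, the annotation, the treatment of reads with several matches and the use of strand. Whole-number counts per gene were deposited by the authors, 1 column per library. Because counts of 4 were more frequent than counts of 3 or 5 everywhere, a read pair may weigh several counts.

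Symbols were matched on Ensembl identifiers (55141 of 55401). Genes were kept by filterByExpr, libraries scaled by TMM, and OP minus HFCF tested two-sided by the quasi-likelihood F test of edgeR 4.0.16 (R 4.3.3). All 17394 tested genes entered the Benjamini-Hochberg adjustment. Standard errors were derived from log2 fold change and F statistic, SDs run over the 3 libraries of a group, and scripts were tested on simulated data. Lengths, reading frames, overlaps and shared 100- and 150-base windows came from GENCODE M21, a GRCm38 annotation, so no gene coordinates are given. Windows of promoters leave out the 50 bases after the start. Alternatives were DESeq2 1.42.0, limma-voom (limma 3.58.1), other filters and scalings, mitochondrial genes left out, the mitochondrial mRNA share as a covariate, counts divided by 4, the replicate number as a block and leaving out each library. Added after seeing the data were the subfamily sums under other scalings and with each library left out. A covariate or block leaves few residual degrees of freedom. Where 1 library is left out of a group, 2 remain.

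The members and lists were chosen with earlier results of these data known. Named genes are the members, the genes of each list that passed the threshold (otherwise the 2 most abundant), and genes overlapping a member. Alb, Ces2d-ps, Ces4a, Gusb, Pnpla2, Aadac, Nr1i2, Nr1i3, Hnf4a, Gm7208, Gm8798, the scarce family genes, the marker genes and the ratios between members were chosen after their values were seen. The hepatocyte marker Tf was not matched by symbol. Figures were drawn with matplotlib 3.10.9.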

Additional observations from a re-analysis of the deposited data

How the results depend on the processing

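Each member kept the sign of its log2 fold change in all 17 alternatives. Over members and alternatives, 133 comparisons kept their side of the threshold, 26 lost a call and 11 gained one. The count of members called higher (5) ran from 0 to 6 when 1 library was left out, was 1 without HFCF replicate 1, 0 without HFCF replicate 2, 2 without OP replicate 1 and 3 without OP replicate 2, and was 1 in the fit with the mitochondrial covariate. The count called lower (0) was 1 with a filter of 1 CPM, with DESeq2 and with counts divided by 4. Genes called higher among all tested (567) numbered 298 without a low-count filter, 1252 with DESeq2, 110 with the covariate and 34 to 655 with 1 library left out; genes called lower (603) numbered 400, 1262, 97 and 54 to 655. The cause was not tested. With the replicate number as a block, 2 members, Ces1d and Ces1e, were called higher, and 87 genes were higher and 93 lower over all. Whether the numbers pair the samples is not known. Deviations from the group means correlated at 0.0229, -0.126 and -0.164 for same-numbered libraries and at -0.152 to 0.248 for the others. The highest value, 0.248, was that of HFCF replicate 3 and OP replicate 2, so same-numbered libraries were not the most alike. With 3 libraries a group such deviations add up to 0 for each gene, which ties these few values to each other. They cannot decide whether the samples are paired. The log2 ratio of the Ces2 sum (-0.0017) ran from -0.095 to 0.19 with 1 library left out, turning to 0.19 without HFCF replicate 3 and 0.11 without OP replicate 3. Every member had at least 2025 counts in each library, where a read pair may weigh several counts. Whether the depth or the spread between the 3 libraries of a group limits these comparisons was not tested.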
